A study of Homo sapiens with 192 samples.

Results

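Transcripts of 10 genes of the Hippo pathway were followed in 4 human colorectal cancer (CRC) cell lines grown in 2D or in 3D. The genes were fixed by name: the effectors YAP1 and WWTR1, their DNA-binding partner TEAD1, the kinase LATS2, the regulators AJUBA and AMOTL2, and the targets CYR61 (also named CCN1), CTGF (also named CCN2), ANKRD1 and AXL. They are 10 of the 58243 genes listed by Ensembl identifier in the deposited counts, and 9 of them, all but ANKRD1, were among the 19387 genes with enough counts to be tested. The study used RNA sequencing of polyadenylated RNA to see how growth in 3D changes gene expression in its CRC lines. HT29, LS513, HCT116 and LS174T are established lines of colorectal carcinoma cells, and each was grown in 2D and in 3D with no treatment named, which gave 8 groups of 3 libraries. By the paper's methods HCT116 was kept in McCoy medium and the remaining lines in DMEM. Line and medium therefore cannot be told apart where HCT116 is compared with another line. The microsatellites are unstable in the lines HCT116 and LS174T and stable in the remaining lines. The labels name no allele or transgene, and neither the labels nor the methods say how the 3D cultures for sequencing were made, for how long they grew, or whether the libraries of a group came from separate cultures. The p-values therefore measure the spread between these libraries, which may in part be technical.

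The Hippo pathway is a kinase chain that restrains growth, for example where cells are crowded. MST kinases activate LATS1 and LATS2, which phosphorylate the coactivators YAP (from YAP1) and TAZ (from WWTR1) and so keep them out of the nucleus. Unphosphorylated YAP and TAZ enter the nucleus, bind TEAD factors and raise the transcription of genes such as CTGF, CYR61 and ANKRD1. In the intestinal epithelium YAP is known for its part in regeneration and in colorectal tumours. Since the pathway acts largely through phosphorylation and localization, transcript levels of its members do not measure its activity.

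Values are CPM, the counts of a gene for every 1000000 counts of its library, after scaling by the trimmed mean of M values (TMM). A floor of 3 counts per library equals 0.0875 to 0.160 CPM at library totals of 18723942 to 34277421 counts, before that scaling. Differences between growth conditions are log2 fold changes of 3D against 2D from edgeR's quasi-likelihood test. That test gives no standard error (SE). The SE here is the absolute log2 fold change divided by the square root of the test's F statistic, and is approximate. A gene was called at a Benjamini-Hochberg adjusted p under 0.05 over all 19387 tested genes. All 8 markers of colon epithelium passed the floor in every library of HT29, LS513 and LS174T, and 7 of 8 did so in HCT116. Under 1 CPM on average were VIL1 and CDX1 in HCT116 under both growth conditions and, in 2D alone, KRT20 in HCT116 and LS174T and CDX1 in HT29. Of other cell types, the fibroblast markers COL1A2, COL3A1, DCN and LUM, the endothelial markers VWF and CDH5 and the immune markers PTPRC, CD3E and CD79A were under 1 CPM in every group, and the 6 fibroblast markers together reached 22.1 CPM in HCT116 and 1.1 CPM in the other lines. The summed immune markers were nevertheless higher in 3D in each line, from 5.2 to 7.91 CPM in 2D to 11.7 to 15.6 CPM in 3D in HT29 for example, and CD68 (a lysosomal protein, 5.98 and 13.5 CPM on average) made up most of that sum. The endothelial marker PECAM1 passed 1 CPM in HT29 alone, with a mean of 1.21 CPM in 2D (0.895 to 1.48) and 2.07 CPM in 3D (1.73 to 2.29), so that it too was higher in every 3D library. The part of these genes in the results was not tested. In such bulk libraries, fewer cells with a transcript and less of it per cell cannot be told apart.

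Libraries also differed by transcript length. In each line, genes with long transcripts were lower in 3D relative to genes with short ones. The median log2 fold change in HT29 went from 0.32 over 672 genes with a longest transcript of up to 1000 bases (genes with a mean log2 CPM above 1) to -0.36 over 2190 genes above 6000 bases. The same medians were 0.30 and -0.29 in LS174T, 0.22 and -0.20 in HCT116, and 0.20 and -0.18 in LS513. In LS174T, replicate 2 in 3D was the lowest library for long transcripts, with genes above 6000 bases at a median deviation of -0.46 (log2) from the mean of the line's 6 libraries. The longest transcripts of WWTR1, YAP1, LATS2 and TEAD1 have 5030 to 8477 bases, so each difference was also fitted with offsets for transcript length and GC content, and these values stand beside the calls below.

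YAP1, the coactivator at the end of the kinase chain, lies on GRCh38 chromosome 11 from 102110461 to 102233423 on the plus strand. It was abundant in all 8 groups, with means between 92.2 and 159 CPM. In HT29 its levels in 2D were 146, 155 and 175 CPM, and in 3D they were 98.2, 84.5 and 120 CPM. All 3 libraries of HT29 grown in 3D were below all 3 grown in 2D. YAP1 fell by 0.65 on the log2 scale (SE 0.16, adjusted p = 0.0023) in HT29, which is 1.57-fold, and by 0.43 (SE 0.10, adjusted p = 0.0016) with the offsets. It was not called in the other lines, whose libraries overlapped between growth conditions. LS513 gave 116, 114 and 111 CPM in 2D and 96.3, 80.5 and 119 CPM in 3D (log2 fold change -0.21, SE 0.16, adjusted p = 0.39). HCT116 gave 100, 97.8 and 79.7 CPM in 2D and 84.2, 98 and 105 CPM in 3D (0.05, SE 0.16, adjusted p = 0.88). In LS174T the 2D libraries had 97.5, 105 and 102 CPM and the 3D libraries 99.8, 65.7 and 111 CPM (-0.14, SE 0.16, adjusted p = 0.57), the low value being that of replicate 2.

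WWTR1, which encodes the YAP paralog TAZ, lies on chromosome 3 from 149517235 to 149736714 on the minus strand. Its transcripts were abundant in HCT116 alone among the 4 lines. HCT116 had 36.9, 35 and 28.9 CPM in 2D and 43.7, 48 and 51.2 CPM in 3D, so that every 3D library exceeded every 2D library. The increase was 0.50 (SE 0.15, adjusted p = 0.016), and 0.68 (adjusted p = 3.0e-04) with the offsets. It was the only member called in HCT116, higher in 3D as were 16.8% of all tested genes, while 0 of 9 were lower against 12.3% of all genes. The call was lost when replicate 3 in 2D (log2 fold change 0.38, adjusted p = 0.093), replicate 2 in 3D (0.48, adjusted p = 0.065) or replicate 3 in 3D (0.42, adjusted p = 0.07) was left out. Counts of WWTR1 in the other lines were at or near the floor. They were 1, 4 and 3 in 2D and 9, 3 and 6 in 3D in HT29, between 1 and 3 in LS513, and 1, 0 and 1 in 2D and 0 in each 3D library of LS174T. A count of 0 allows up to 3 counts per library. In 2D, HCT116 exceeded HT29, the next line, by 8.27 on the log2 scale (SE 0.27, adjusted p = 9.0e-17). With 1, 4 and 3 counts in HT29, this size and its SE are rough. The order of the remaining lines could not be told at such counts.

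TEAD1, one of the TEAD family of transcription factors that carry YAP and TAZ to DNA, lies on chromosome 11 from 12674591 to 12944483 on the plus strand. Its transcripts fell in HT29 from 143, 154 and 157 CPM in 2D to 71.9, 60.6 and 84 CPM in 3D. The groups were far apart, and the fall was 1.07 on the log2 scale (SE 0.25, adjusted p = 0.002). With the offsets it was smaller, a log2 fold change of -0.69 (SE 0.15, adjusted p = 9.6e-04). TEAD1 fell in LS174T too, from 76.3, 79.4 and 79.4 CPM to 48.9, 23.4 and 63.3 CPM (-0.79, SE 0.25, adjusted p = 0.029), with every 3D library below every 2D library. That call rested on few libraries. Without replicate 2 in 3D, at 23.4 CPM, the log2 fold change was -0.47 (adjusted p = 0.19), and leaving out replicate 1 in 3D or any 2D library gave an adjusted p between 0.053 and 0.076. With the offsets TEAD1 remained lower in LS174T at -0.53 (adjusted p = 0.016). LS513 had 109, 114 and 101 CPM in 2D and 71.1, 58.8 and 97.1 CPM in 3D, groups that did not overlap and yet gave no call (-0.51, SE 0.25, adjusted p = 0.15). In HCT116, replicate 3 in 2D, at 66.2 CPM, lay among the 3D libraries at 60.6, 82.8 and 84.7 CPM, whereas the other 2D libraries had 120 and 116 CPM (-0.41, SE 0.25, adjusted p = 0.24).

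The TEAD paralogs moved differently in HT29. TEAD4 fell from 46.4 to 29.7 CPM on average (-0.64, SE 0.09, adjusted p = 9.8e-06), while TEAD2 rose from 46.5 to 65.2 CPM (0.49, SE 0.12, adjusted p = 0.0024), a call that was lost with the offsets (0.20, adjusted p = 0.18). TEAD3 was at 60.5 CPM in 2D and 58.9 CPM in 3D (-0.04, SE 0.09, adjusted p = 0.78), and with the offsets it was called lower (-0.29, adjusted p = 0.011). TEAD4 also fell in HCT116, from 43.3 to 30.7 CPM (-0.50, SE 0.09, adjusted p = 2.9e-04). With the offsets it was lower in all 4 lines, at -1.04 in HT29, -0.84 in HCT116, -0.50 in LS174T and -0.48 in LS513 (largest adjusted p = 0.0053). Per kilobase of merged exons, TEAD1 had 14.7 CPM in HT29 grown in 2D, beside 15.6 for TEAD2, 19.9 for TEAD3 and 20.4 for TEAD4, so that TEAD1 was not the most abundant TEAD transcript on that scale.

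LATS2, the kinase that phosphorylates YAP and TAZ and is itself among their targets, lies on chromosome 13 from 20973032 to 21061547 on the minus strand. HT29 had the highest levels, 24.7, 23.5 and 23.6 CPM in 2D, and these fell to 17.1, 16.6 and 13.8 CPM in 3D (-0.59, SE 0.13, adjusted p = 0.0013, and -0.51 with the offsets). LS174T had the lowest, and fell from 7.89, 8.22 and 8.95 CPM to 6.19, 4.16 and 6.57 CPM (-0.56, SE 0.14, adjusted p = 0.0074, and -0.45 with the offsets). In both lines the 2D and 3D libraries did not overlap. Without replicate 2 in 3D the change in LS174T was -0.38 (adjusted p = 0.072). LATS2 lay between 11.5 and 13.5 CPM in all 6 libraries of LS513 (-0.03, SE 0.14, adjusted p = 0.93) and between 12 and 15.5 CPM in those of HCT116 (-0.12, SE 0.14, adjusted p = 0.56). Its paralog LATS1 fell in HT29 from 34.6 to 20.3 CPM (-0.77, SE 0.22, adjusted p = 0.0089), and by 0.37 (adjusted p = 0.022) with the offsets.

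AJUBA, a LIM-domain protein of cell junctions that binds LATS kinases and holds them in check, lies on chromosome 14 from 22971174 to 22982642 on the minus strand. HT29 gave 42.7, 45.6 and 49.4 CPM in 2D and 20.8, 17.3 and 20.1 CPM in 3D. The groups were far apart. The fall of 1.24 (SE 0.12, adjusted p = 6.5e-08) was 2.36-fold and was as large with the offsets (a log2 fold change of -1.27). In LS513 and HCT116 the groups overlapped, with means of 38.6 and 33.6 CPM in LS513 and of 42.2 and 37.5 CPM in HCT116. LS174T had the highest level, 67.6, 57.9 and 59 CPM in 2D and 57.4, 45.6 and 57.2 CPM in 3D, and its groups did not overlap but were not called (-0.20, SE 0.12, adjusted p = 0.22). Of its relatives in the same family, WTIP fell in HT29 from 4.9 to 3.36 CPM (-0.55, adjusted p = 0.014), a call that was lost with the offsets (-0.42, adjusted p = 0.1), and LIMD1 had 35.1 and 30.5 CPM (-0.20, adjusted p = 0.31).

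AMOTL2, an angiomotin family protein that binds YAP at cell junctions and is a YAP target as well, lies on chromosome 3 from 134355874 to 134375479 on the minus strand. In HT29 its levels were 74.8, 68.3 and 65.6 CPM in 2D and 43.7, 64.3 and 39.2 CPM in 3D. Replicate 3 in 3D came close to the lowest 2D library, and the other 3D libraries were well below. The fall was 0.50 (SE 0.14, adjusted p = 0.0072), and 0.58 with the offsets. It was the least firm of the HT29 calls: leaving out replicate 1 in 2D, replicate 1 in 3D or replicate 4 in 3D gave adjusted p-values of 0.057, 0.063 and 0.086, the last with a log2 fold change of -0.33. The groups overlapped in the other lines, with means of 63.5 and 57.2 CPM in LS513, 46.5 and 44.9 CPM in HCT116, and 18.9 and 17.5 CPM in LS174T. Of the other angiomotins, AMOT had only 0.142 and 0.13 CPM in HT29, and fell in LS513 from 20.6 to 11.4 CPM (-0.85, SE 0.19, adjusted p = 0.0023) and in LS174T from 14.8 to 9.68 CPM (-0.61, SE 0.19, adjusted p = 0.027). With the offsets AMOT was still called in LS513 (-0.75, adjusted p = 8.4e-04) but not in LS174T (-0.37, adjusted p = 0.097). AMOTL1 was at or under the floor in HT29, LS513 and LS174T and had 66.4 and 52.9 CPM in HCT116 (-0.33, adjusted p = 0.14).

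**Figure D1:**
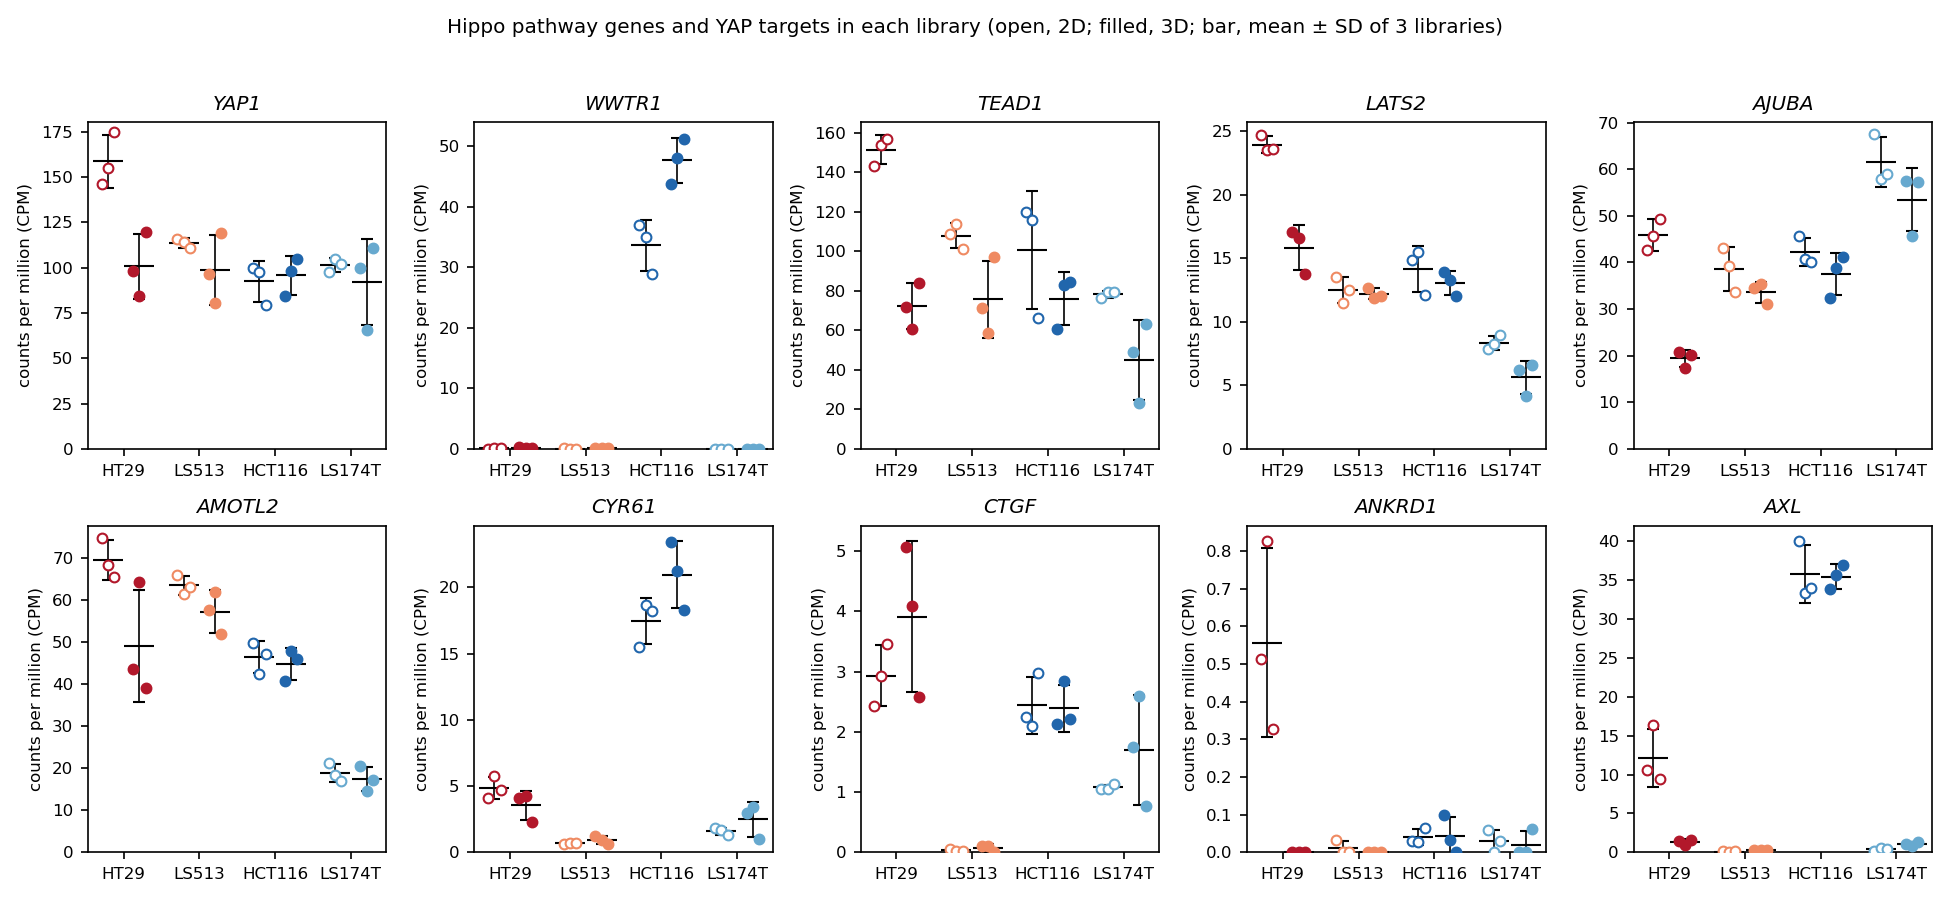
CPM after TMM scaling (linear y axis from 0, its own scale in each panel) of the 10 genes in the 24 libraries, by line and growth condition. Open points are 2D and filled points 3D libraries, and black bars show the mean ± SD of 3 libraries. In HT29 the filled points lie below all open ones for 7 genes (YAP1, TEAD1, LATS2, AJUBA, AMOTL2, ANKRD1 and AXL), while WWTR1 stands above 28 CPM in HCT116 alone.

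For 4 of the genes the sequence before the start is shown, because TEAD factors bind the motif GGAATG and CTGF, which held the most copies, was not called in any line, whereas AXL, AJUBA and ANKRD1 moved most in HT29. RefSeq promoter windows on GRCh38.p14, from 250 bases before to 50 after a start, were found for 8 of the 10 genes at 12 start sites, and were not found for CYR61 and TEAD1. The motif, read on both strands, was present in 7 of the 12 windows, beside 14% of all 35116 windows in the RefSeq table. CTGF had 3 copies, 169, 104 and 95 bases before the start, and 0.128% of all windows had that many. ANKRD1 had 2 copies, 220 and 128 bases before the start. YAP1, LATS2, the downstream starts of AJUBA and AMOTL2 and the downstream start of AXL each had 1 copy, and WWTR1 and the upstream starts of AJUBA, AMOTL2 and AXL had none. The 250 bases before the start are given 5' to 3' on the strand of the gene, with the motif in capitals, for CTGF at chr6:131951373-131951622 (minus strand), ANKRD1 at chr10:90921088-90921337 (minus), the downstream start of AJUBA at chr14:22976843-22977092 (minus), and the upstream and downstream starts of AXL at chr19:41218973-41219222 and chr19:41226505-41226754 (plus).
CTGF: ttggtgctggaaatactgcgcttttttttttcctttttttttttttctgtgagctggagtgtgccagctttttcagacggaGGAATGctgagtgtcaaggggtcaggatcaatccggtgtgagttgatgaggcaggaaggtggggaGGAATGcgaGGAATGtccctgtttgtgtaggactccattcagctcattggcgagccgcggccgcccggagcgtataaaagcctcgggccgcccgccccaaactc
ANKRD1: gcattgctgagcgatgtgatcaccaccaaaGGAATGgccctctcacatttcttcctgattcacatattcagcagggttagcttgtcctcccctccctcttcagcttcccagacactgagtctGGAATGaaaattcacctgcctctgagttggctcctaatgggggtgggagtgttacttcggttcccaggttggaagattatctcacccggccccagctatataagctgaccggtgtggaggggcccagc
AJUBA, downstream start: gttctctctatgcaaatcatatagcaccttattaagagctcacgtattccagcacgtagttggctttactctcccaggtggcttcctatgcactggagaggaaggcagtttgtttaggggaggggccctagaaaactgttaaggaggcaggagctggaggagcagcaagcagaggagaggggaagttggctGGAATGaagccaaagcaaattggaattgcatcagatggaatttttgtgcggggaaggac
AXL, upstream start: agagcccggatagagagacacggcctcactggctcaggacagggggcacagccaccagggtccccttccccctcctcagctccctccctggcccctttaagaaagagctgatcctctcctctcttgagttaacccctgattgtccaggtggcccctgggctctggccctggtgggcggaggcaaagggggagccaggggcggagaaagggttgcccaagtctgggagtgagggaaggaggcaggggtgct
AXL, downstream start: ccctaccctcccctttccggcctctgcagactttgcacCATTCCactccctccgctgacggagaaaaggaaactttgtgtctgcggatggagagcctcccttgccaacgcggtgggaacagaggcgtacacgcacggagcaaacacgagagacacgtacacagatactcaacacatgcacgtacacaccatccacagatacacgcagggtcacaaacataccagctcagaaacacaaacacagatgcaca
A match in these letters is a description of the window and not of a bound site.

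AXL, a receptor tyrosine kinase for the ligand GAS6 and a YAP target in several cancers, lies on chromosome 19 from 41219203 to 41261766 on the plus strand. It showed the largest change of the 9 tested genes. HT29 had 10.6, 16.4 and 9.48 CPM in 2D and 1.45, 0.934 and 1.63 CPM in 3D, a 9.11-fold fall between groups that were far apart (log2 fold change -3.19, SE 0.23, adjusted p = 1.3e-09, and -3.21 with the offsets). LS174T moved the other way at a much lower level, from 0.239, 0.626 and 0.415 CPM in 2D to 1.13, 0.766 and 1.38 CPM in 3D, and the groups did not overlap. These values rest on 8 to 22 counts in 2D and 21 to 45 in 3D. The increase was 1.36 (SE 0.32, adjusted p = 0.0046), and 1.35 (adjusted p = 0.057) when only the 6 LS174T libraries were fitted. LS513 had 2 to 4 counts in 2D and 7 to 10 in 3D, also without overlap, and was not called (1.45, SE 0.56, adjusted p = 0.063). In HCT116, where AXL was highest, the libraries lay between 33.3 and 40 CPM in 2D and between 33.8 and 36.9 CPM in 3D (-0.01, SE 0.19, adjusted p = 1).

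ANKRD1, an ankyrin repeat protein best known from muscle and a common readout of YAP, lies on chromosome 10 from 90912096 to 90921276 on the minus strand. It exceeded 3 counts in HT29 grown in 2D alone, where the libraries had 15, 24 and 6 counts (0.514, 0.826 and 0.329 CPM). The 3 libraries of HT29 grown in 3D had 0 counts each, which allows up to 0.101 CPM (after TMM scaling) on average at 3 counts per library. Set against that floor, the 2D mean of 0.556 CPM was 5.51-fold higher, a figure that makes no allowance for the spread between the 2D libraries. It did not pass the filter on low counts and so has no value in the fit used for the other genes. With all genes of at least 1 count kept, edgeR gave an adjusted p of 1.9e-08, and DESeq2 gave 3.9e-04. That unfiltered edgeR fit shifted other adjusted p-values in HT29, for TEAD1 from 0.002 to 2.2e-15 and for LATS2 from 0.0013 to 0.0037. The 1.9e-08 is therefore not comparable with the adjusted p-values of the other genes. The 18 libraries of the other lines held 14 counts together, with 3 in the highest.

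CTGF and CYR61, secreted matricellular proteins and the most used readouts of YAP and TAZ, were not called in any line. CTGF lies on chromosome 6 from 131948176 to 131951373 on the minus strand. In HT29 it had 2.43, 2.92 and 3.45 CPM in 2D and 5.07, 4.08 and 2.58 CPM in 3D (0.43, SE 0.30, adjusted p = 0.28), so its mean was higher in 3D where AXL, AJUBA and ANKRD1 were lower. HCT116 gave 2.24, 2.1 and 2.98 CPM in 2D and 2.13, 2.84 and 2.21 CPM in 3D (-0.03, SE 0.31, adjusted p = 1). LS174T had 1.05, 1.05 and 1.13 CPM in 2D and a wide spread of 1.75, 2.59 and 0.768 CPM in 3D (0.65, SE 0.34, adjusted p = 0.17). LS513 had 0 to 3 counts per library, at or under the floor.

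CYR61 lies on chromosome 1 from 85580761 to 85583962 on the plus strand. Its levels in HT29 were 4.12, 5.78 and 4.71 CPM in 2D and 4.13, 4.25 and 2.29 CPM in 3D (-0.45, SE 0.28, adjusted p = 0.22). HCT116 had 15.5, 18.7 and 18.2 CPM in 2D and 23.4, 21.2 and 18.3 CPM in 3D (0.26, SE 0.25, adjusted p = 0.47). In LS174T it had 1.82, 1.68 and 1.3 CPM in 2D and 3, 3.46 and 1.01 CPM in 3D (0.63, SE 0.31, adjusted p = 0.15). CYR61 in LS513 had 18 to 36 counts per library (0.46, SE 0.40, adjusted p = 0.45). The groups overlapped in all 4 lines. Replicate 3 of LS174T grown in 3D was the lowest library of that line for both genes. Without it CYR61 rose by 1.01 (adjusted p = 0.004) and CTGF by 1.00 (adjusted p = 0.016). Leaving out another library lowered the changes to as little as 0.34 for CYR61 and 0.24 for CTGF. The adjusted p then reached 0.58 and 0.73, so the size of either change depended on single libraries.

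Over the members together, calls were most numerous in HT29. In HT29, 6 of the 9 tested genes were lower in 3D (AXL, AJUBA, TEAD1, YAP1, LATS2 and AMOTL2), beside 19.6% of all tested genes, and 0 were higher, beside 21.1%. The median log2 fold change was -0.59 over these 9 genes, whereas the median of all tested genes was 0.00. In LS513, 0 of the 7 tested genes above the floor were called by edgeR, beside 9.9% lower and 13.7% higher over all genes. At an unadjusted p under 0.05 that count was 1 (AXL), and DESeq2 called 1. The shares of all genes called by these other rules were not computed, so nothing is read from these counts. LS174T had 2 members lower (TEAD1 and LATS2) of 8 above the floor, beside 9.15% of all genes, and 1 higher (AXL), beside 13.1%. The medians of the members above the floor were -0.12 in LS174T, -0.03 in HCT116 and -0.15 in LS513, with medians of all genes between 0.00 and 0.02. All 10 calls over the 4 lines held with the length and GC offsets. With them, 21.5% of all tested genes were lower in HT29, 14.6% in LS513, 17.8% for HCT116 and 11.6% for LS174T, and 19.5%, 13.2%, 14.7% and 11.1% were higher.

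The 2D and 3D libraries did not overlap for 7 of the 10 members in HT29, which were all lower in 3D. Of all tested genes, 25.6% were lower and 27.3% higher without overlap. The 7 members were the 6 called genes and ANKRD1, which was not tested. In LS513 these were TEAD1, lower beside 20.0% of all genes, and AXL, higher beside 23.0%. In HCT116 only WWTR1 did not overlap, higher beside 22.8% of all genes, and 0 members were lower beside 17.6%. In LS174T, TEAD1, LATS2 and AJUBA were lower beside 17.6% of all genes, and AXL was higher beside 20.9%.

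**Figure D2:**
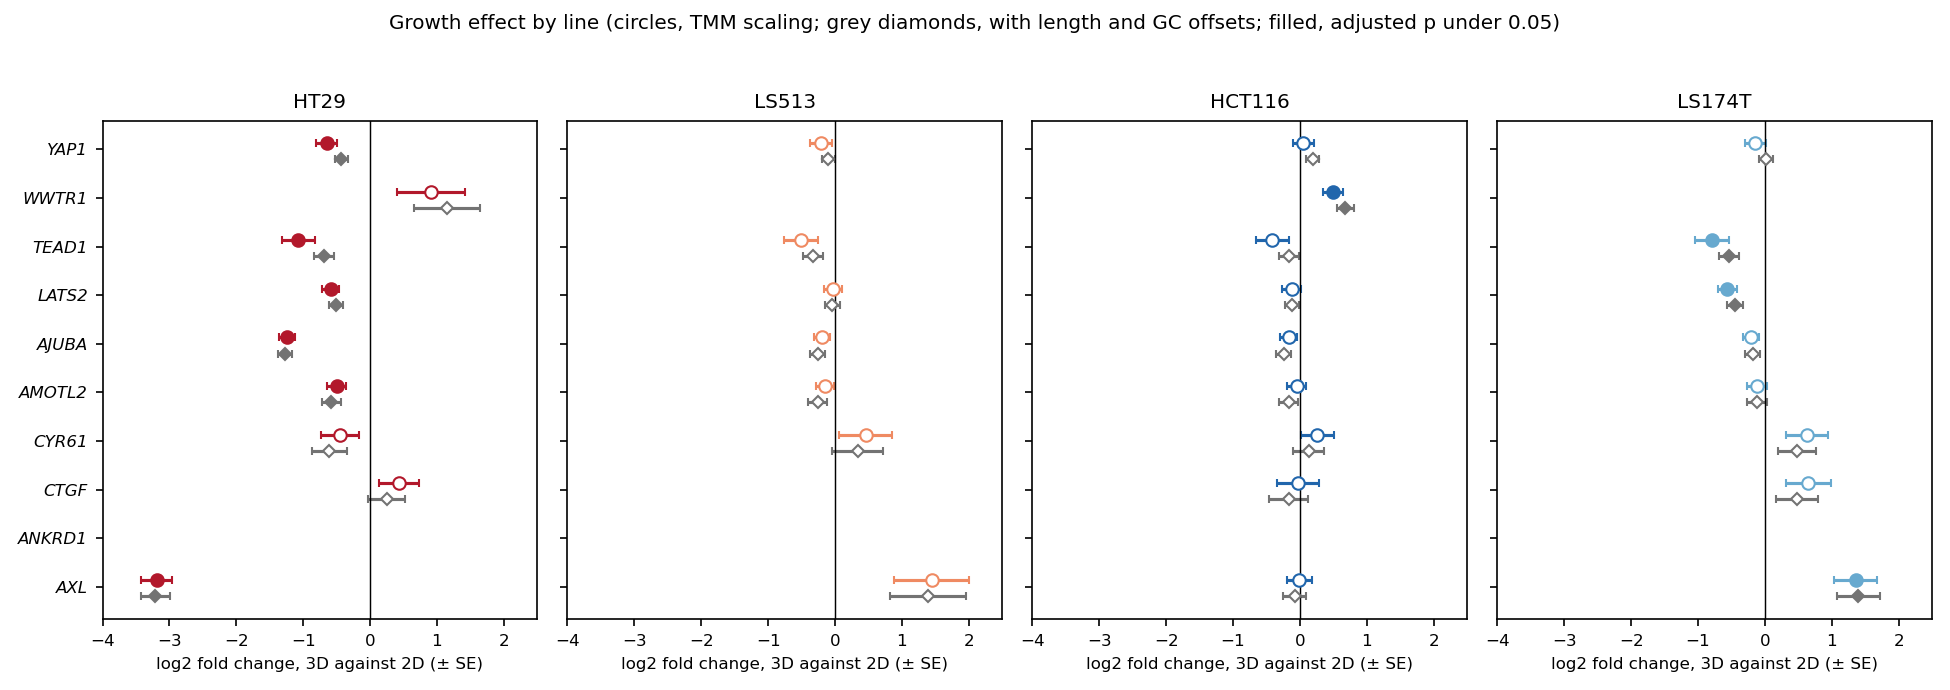
Log2 fold change of 3D against 2D ± SE (x axis) for each gene (y axis) in each line, from 3 libraries per group. Circles are the values after TMM scaling and grey diamonds those with length and GC offsets, filled at an adjusted p under 0.05, and genes at or under the floor or not tested are left out. Filled circles mark 6 genes in HT29, 3 in LS174T, 1 in HCT116 and 0 in LS513, from AXL at -3.19 in HT29 to AXL at 1.36 in LS174T.

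**Figure D3:**
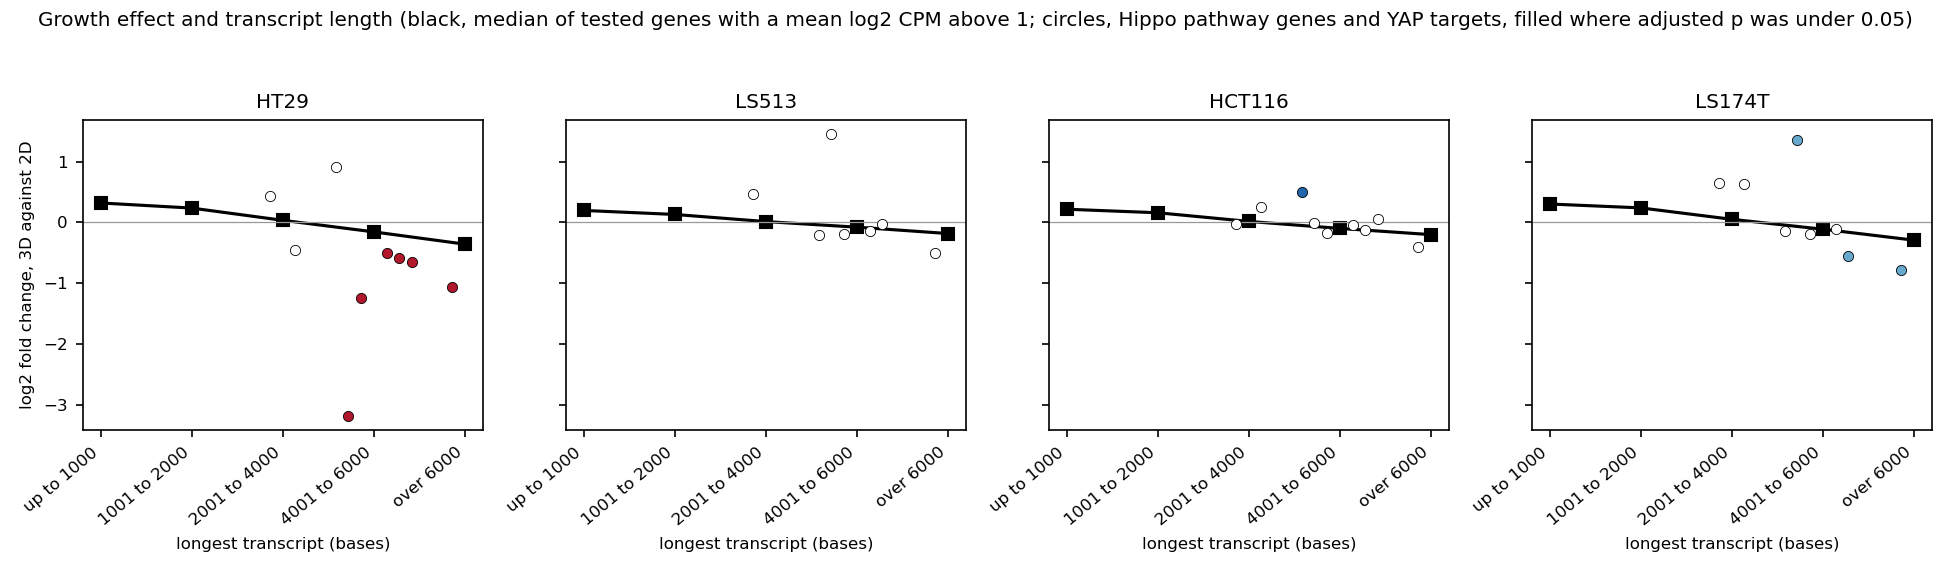
Log2 fold change of 3D against 2D (y axis) by length of the longest transcript in bases (x axis, 5 bins) in each line. Black squares are medians over the tested genes of the bin with a mean log2 CPM above 1, and circles are the members above the floor, filled at an adjusted p under 0.05 and spread sideways within a bin to keep them apart. The medians go from 0.32 to -0.36 in HT29, and the 6 filled circles of that line all lie below the median of their bin.

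The growth effect itself differed between the 4 lines for AXL (interaction adjusted p = 3.2e-08) and AJUBA (adjusted p = 7.3e-05), which is 2 of the 9 tested members beside 17.1% of all tested genes. For AXL the change went from -3.19 in HT29 to 1.36 in LS174T, and for AJUBA it was -1.24 in HT29 and between -0.20 and -0.17 in the other lines. The interaction was not called for LATS2 (adjusted p = 0.064), YAP1 (adjusted p = 0.12), CYR61 (adjusted p = 0.23), AMOTL2 (adjusted p = 0.33), TEAD1 (adjusted p = 0.48), WWTR1 (adjusted p = 0.49) or CTGF (adjusted p = 0.69). Where such a gene was called in some lines and not in others, this is therefore not shown to be a difference between the lines. With the offsets YAP1 passed as well (adjusted p = 0.014), beside 24.3% of all genes.

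Levels in 2D separated the lines for all 9 tested members, which is close to the 91.7% of all tested genes that differed between lines. Of 27 pairs of lines next to each other in the order of a gene's level, 15 differed. In 1 of the pairs (WWTR1 in LS513 and LS174T) both lines were at or under the floor. Neighbours were picked by each gene's own levels. The shares that follow are for fixed pairs of lines and are not a like background for that count. Over all tested genes the share that differed was 60.6% between HT29 and LS513, 64.6% between HT29 and LS174T, 68.8% between HT29 and HCT116, 57.6% between LS513 and LS174T, 68.3% between LS513 and HCT116, and 68.3% between HCT116 and LS174T. HT29 led for YAP1, with 159 CPM against 114 CPM in LS513 (0.48, SE 0.16, adjusted p = 0.011), and LS513, LS174T (101 CPM) and HCT116 (92.6 CPM) could not be told apart from the next line. For TEAD1 no neighbours could be told apart, from 151 CPM in HT29 through 108 CPM in LS513 and 101 CPM in HCT116 to 78.4 CPM in LS174T. HT29 was highest for LATS2 (23.9 CPM) too, followed by HCT116 (14.2 CPM) and LS513 (12.5 CPM), which could not be told apart, and by LS174T (8.35 CPM). For AMOTL2, HT29 (69.6 CPM) and LS513 (63.5 CPM) could not be told apart, and HCT116 (46.5 CPM) and LS174T (18.9 CPM) came below at each step. AJUBA was highest in LS174T (61.5 CPM), while HT29, HCT116 and LS513 could not be told apart from the next line at 45.9, 42.2 and 38.6 CPM.

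Among the targets, AXL went from 35.8 CPM in HCT116 through 12.2 CPM in HT29 and 0.427 CPM in LS174T to 0.105 CPM in LS513, and CYR61 from 17.4 CPM in HCT116 through 4.87 CPM in HT29 and 1.6 CPM in LS174T to 0.678 CPM in LS513, with a difference at each step. CTGF could not be told apart between HT29 and HCT116 (2.94 and 2.44 CPM, adjusted p = 0.47), was lower in LS174T (1.07 CPM) and at 4 counts over 3 libraries in LS513. LS513 thus had the lowest level of AXL, CYR61 and CTGF while its mean YAP1 and TEAD1 ranked next to HT29, a rank not told apart from that of the lines below. On the scale of CPM per kilobase of merged exons, the levels in HT29 grown in 2D were 25.2 for YAP1, 14.7 for TEAD1, 11.6 for AMOTL2, 7.68 for AJUBA, 4.29 for LATS2, 2.36 for AXL, 1.98 for CYR61, 1.26 for CTGF, 0.281 for ANKRD1 and 0.0133 for WWTR1. In HCT116 grown in 2D, CYR61 (7.1) and AXL (6.94) per kilobase were near AJUBA (7.05), and WWTR1 was at 3.99 beside YAP1 at 14.7.

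Further genes of the pathway were taken from a list of 30 kinases, scaffolds and TEAD partners. In HT29, 13 of 28 above the floor were lower in 3D and 3 higher, beside 19.6% and 21.1% of all tested genes. The count lower was 7 of 27 in LS174T (beside 9.15% of all genes), 6 of 30 in HCT116 (12.3%) and 3 of 25 in LS513 (9.90%), the last of these near its background. Of the 7 in LS174T, 5 had a mean of at least 1 CPM. WWC2 (0.469 and 0.0838 CPM) and VGLL1 (0.079 and 0 CPM) did not. The count higher was 2 in LS174T, 4 in HCT116 (3 of at least 1 CPM) and 3 in LS513, beside 13.1%, 16.8% and 13.7%. With the offsets these were 13 lower and 1 higher in HT29, 5 and 1 in LS174T, 8 and 4 in HCT116, and 8 and 1 in LS513, beside the shares of all genes given above for the offsets. Without the offsets, the median log2 fold change of the list was -0.31 in HT29, -0.26 in HCT116, -0.24 in LS174T and -0.18 in LS513. The medians of all tested genes lay between 0.00 and 0.02. In the length trend given above, genes over 6000 bases had medians of -0.36, -0.20, -0.29 and -0.18 in the same order of lines. Many listed genes have long transcripts, and whether the medians of the list differ from that trend was not tested. The largest fall in HT29 was that of WWC2, a KIBRA family scaffold that activates LATS, from 15.4 to 6.15 CPM (-1.33, SE 0.19, adjusted p = 9.0e-06). CRB3, a Crumbs polarity protein at the apical membrane, had the largest increase among called pathway genes of at least 1 CPM in HT29 (16.8 to 26.6 CPM, 0.66), HCT116 (11.8 to 23.2 CPM, 0.98) and LS174T (32.4 to 45.1 CPM, 0.48). With the offsets only that in HCT116 was still called (0.61, adjusted p = 2.9e-04). PTPN14, a phosphatase that binds YAP, was the pathway gene of at least 1 CPM with the largest fall in HCT116 (48.1 to 30.5 CPM, -0.65, adjusted p = 0.023) and in LS174T (29.3 to 18.8 CPM, -0.64, adjusted p = 0.036, not called with the offsets at adjusted p = 0.055). In HCT116 its 2D and 3D libraries overlapped. PTPN14 was lower in the other lines as well. It fell from 68.8 to 27.5 CPM in HT29 (-1.32, adjusted p = 4.7e-05) and from 15.8 to 8.9 CPM in LS513 (-0.83, adjusted p = 0.0091). In LS513 the largest changes were the fall of AMOT given above and an increase of VGLL3, a TEAD cofactor, from 0.962 to 2.14 CPM (1.15, SE 0.27, adjusted p = 0.0047).

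A list of 15 further genes often used as YAP and TAZ targets had 13 that were tested, all but FOXF2 and RBMS3. In HT29, 8 of 12 above the floor were lower in 3D and 1 higher, beside 19.6% and 21.1% of all tested genes. Their median log2 fold change was -0.81 without the offsets. TGFB2, a transforming growth factor, fell most, from 3.64 to 0.325 CPM (-3.47, SE 0.41, adjusted p = 2.6e-06), and GADD45A, a stress-induced growth arrest gene, rose from 10.4 to 15.2 CPM (0.55, adjusted p = 0.0087, not called with the offsets at adjusted p = 0.13). The other lines had 2 lower and 3 higher of 13 in LS174T, 1 and 3 of 13 in HCT116, and 1 and 3 of 12 in LS513, with medians of -0.25, 0.15 and -0.10. All tested genes gave 9.15% lower and 13.1% higher in LS174T, 12.3% and 16.8% in HCT116, and 9.90% and 13.7% in LS513, and nothing is read from counts of 1 to 3 genes beside such shares. With the offsets the counts were 8 and 0 in HT29, 2 and 4 in LS174T, 2 and 3 in HCT116, and 2 and 3 in LS513. IGFBP3, a binding protein for insulin-like growth factors, rose most in LS513 (0.0944 to 21.9 CPM, 7.80, SE 0.43, adjusted p = 2.0e-09). With 2 to 5 counts per library in LS513 grown in 2D, this size and its SE are rough. IGFBP3 also rose most in LS174T (32 to 105 CPM, 1.71, SE 0.24, adjusted p = 8.8e-05), and was at 0 counts in all HT29 libraries. NT5E, the ectonucleotidase CD73, rose in HCT116 from 32 to 56 CPM (0.81, SE 0.16, adjusted p = 5.1e-04) and fell in HT29 from 82.2 to 41.8 CPM (-0.98, adjusted p = 4.0e-05, and -0.89 with the offsets). DOCK5, a guanine nucleotide exchange factor, fell in HCT116 from 82.9 to 55.7 CPM (-0.57, adjusted p = 0.049). MYOF, a membrane repair protein, was the target of at least 1 CPM with the largest fall in LS174T (141 to 71.2 CPM, -0.99, SE 0.17, adjusted p = 3.3e-04). Its fall in HT29 was larger still, from 156 to 36.4 CPM (-2.10, adjusted p = 1.0e-08). FJX1, a secreted protein related to fly four-jointed, was the 1 target that fell in LS513 (1.57 to 0.879 CPM, -0.84, adjusted p = 0.0063). Its 2D and 3D libraries overlapped there.

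**Figure D4:**
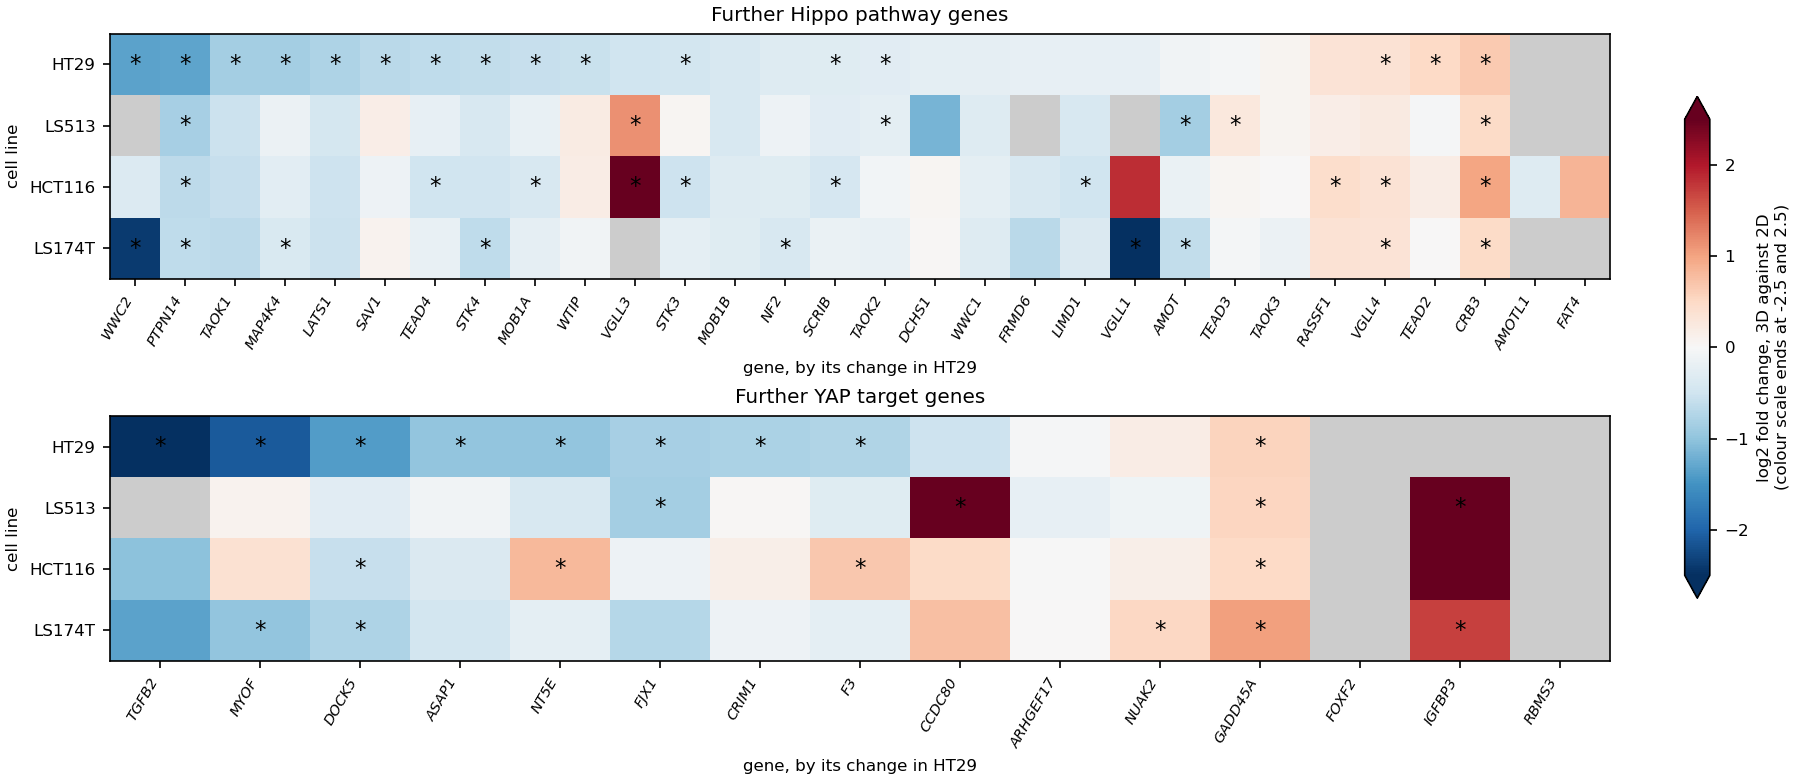
Log2 fold change of 3D against 2D (colour, blue lower and red higher in 3D, scale ending at -2.5 and 2.5) of 30 further Hippo pathway genes (top) and 15 further YAP target genes (bottom) in the 4 lines (y axis), ordered along the x axis by the change in HT29. Stars mark an adjusted p under 0.05 and grey cells genes not tested or at or under the floor. HT29 has 13 stars for lower and 3 for higher pathway genes, and 8 and 1 for targets.

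The genes whose group means over the 8 groups were most like those of 3 members were found by Pearson's correlation of log2(CPM + 1) among tested genes of at least 1 CPM, as a description only, since the 8 means share 4 lines. They were CAPRIN2 (0.945), SNORA73A (0.937) and SCLT1 (0.936) for YAP1, ASB6 (0.995), TAF12 (0.990) and LINC01270 (0.989) for CYR61, and LAGE3 (0.988), OTUD6B-AS1 (0.987) and MRPL40 (0.986) for CTGF. No member was among them.

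Some reads of these genes could belong to an overlapping gene. Of the merged exons, 9.97% of YAP1 (AP000942.2), 9.45% of WWTR1 (WWTR1-AS1), 8.34% of CTGF (AL133346.1) and 1.3% of AXL (AC011510.1) overlap a gene on the opposite strand, which matters only if strand was not used in counting, and this was not stated. On the same strand, 3.12% of AMOTL2 (RPL39P5) and 0.836% of AJUBA (AL132780.3) overlap another gene.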

How the data were processed

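Poly(A) RNA was made into strand-specific libraries, and 1 end of each fragment was read. Reads were trimmed by the authors (Trim Galore 0.4.1) and aligned with STAR, reads with several alignments were dropped, and the rest were counted per gene with HTSeq-count 0.5.3. The authors deposited raw counts for each technical replicate, with no normalization. The labels name hg19 and the paper an Ensembl 91 genome. Of the 58243 identifiers, 57980 (99.5%) are in GENCODE 29 on GRCh38, which gave names, positions and lengths. The strand option of the counting is not given in the sources used here.

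The 191 sets of counts were summed to 24 libraries, and 1 library of HT29 grown in 3D (replicate 4) has 7 technical replicates and the others 8. Groups and replicate numbers came from the labels. Counts were fitted in R 4.3.3 with edgeR 4.0.16 (filterByExpr, TMM, a robust quasi-likelihood fit in which the 24 libraries shared 1 model of 8 group means), with Benjamini-Hochberg adjustment over 19387 genes. The scripts were tested on simulated data. Lines were compared in 2D, and growth effects between lines by an interaction test. Alternatives were DESeq2 size factors, DESeq2 1.42.0, all genes with at least 1 count, a block of replicate number, only the 6 libraries of a line, leaving out technical replicate d or each library in turn, and the study's cutoffs (log2 fold change under -0.5 or over 1.5). Offsets for transcript length and GC content (smooth fits by mgcv) were added after the length trend had been seen. Same-numbered libraries of 2D and 3D did not deviate together (11 pairs, correlations from -0.146 to 0.0938), so no pairing was used.

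The members and lists were chosen with earlier results of these data known. Named further genes are, per list, line and direction, the called gene of at least 1 CPM with the largest change, and paralogs of members. A floor is 3 counts and covers counting error only. A 3 against 3 exact permutation test cannot give a p under 0.1, so none was run for single genes. Promoter windows came from RefSeq (GRCh38.p14).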

Additional observations from a re-analysis of the deposited data

Results flagged for a closer look

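The growth effect differed between the 4 lines by the interaction test for AXL (adjusted p = 3.2e-08) and for AJUBA (adjusted p = 7.3e-05). AXL fell in HT29 (-3.19), rose in LS174T (1.36) and had values of 1.45 in LS513 and -0.01 in HCT116, where it was not called. In HT29 and LS174T alike all 3 libraries grown in 3D lay on 1 side of the 3 grown in 2D. AJUBA fell in HT29 (-1.24) and had -0.20, -0.17 and -0.20 in LS513, HCT116 and LS174T, where it was not called.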

How the results depend on the processing

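Of 10 calls of a member in a line, 5 kept their direction and call under every alternative (YAP1, TEAD1, LATS2, AJUBA and AXL in HT29), and 0 changed sign. Of 23 values without a call, 5 were called under some alternative and 6 changed sign. In LS513, 0 members were called, but 2 with all genes of at least 1 count (TEAD1 and AXL), 1 with DESeq2 (AXL) and 1 with only the 6 libraries of the line (TEAD1). In HCT116 the count of 1 became 2 with all genes of at least 1 count (TEAD1 added) and 0 with the study's cutoffs, and leaving out a library gave 0 to 1. In LS174T the count of 3 became 0 with only the 6 libraries of the line, and 1 to 5 with a library left out, 1 without replicate 2 in 3D and 5 without replicate 3 in 3D. The count of 2 members with a growth effect that differed between lines became 6 with all genes of at least 1 count, and 2 to 5 with a library left out. Causes of these changes were not tested. The shares of all genes called under these alternatives were not computed, so nothing is read from these counts about the members. With a replicate block, WWTR1 in HCT116 (adjusted p = 0.061, so 0 members called there) and AMOTL2 in HT29 (adjusted p = 0.096) lost their calls, and no other call changed. Signs changed only near 0. Without technical replicate d, LATS2 in LS513 was at 0.00 and AXL in HCT116 at 0.01, and with the offsets YAP1 in LS174T was at 0.02. With a library left out, LATS2 in LS513 ranged from -0.09 to 0.02, YAP1 in HCT116 from -0.08 to 0.11, CTGF in HCT116 from -0.19 to 0.11, AXL in HCT116 from -0.08 to 0.07, YAP1 in LS174T from -0.29 to 0.06 and AMOTL2 in LS174T from -0.24 to 0.01. Depth limits WWTR1 and CTGF in LS513, WWTR1 in LS174T and ANKRD1 outside HT29, which were at or under the floor of 3 counts.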
